A study of Homo sapiens with 12 samples.

Results

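The genes described here are the expressed protein-coding genes of a stretch of 17.76 Mb on the long arm of chromosome 11, in and around band 11q23. Members were chosen by position and by expression. Each is a protein-coding gene of chromosome 11 with its start at chr11:108505431-126269055 (GENCODE 29, GRCh38), a mean of at least 50 counts over the 12 libraries and a symbol that does not begin with RPL or RPS. This gave 96 members of 61044 gene IDs in the table. The interval held 202 protein-coding genes of the table, of which 105 were under the minimum (37 of them at 0 in all 12 libraries) and 1, RPS25, was left out by its name. The first member is EXPH5 and the last is FOXRED1. The ends of the interval had been set with the differences from the control hairpin of these same libraries in view, so every difference of a member from the control is a description of what was chosen and carries no test.

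The labels give all cells as SCC-15, a long-established line of human oral squamous cell carcinoma, and their RNA was sequenced. The control group (NC) carried a negative-control short hairpin RNA and the groups shRNA1, shRNA2 and shRNA3 each carried 1 of 3 hairpins against FMOD, the gene of fibromodulin, a collagen-binding proteoglycan found between cells. All cells were grown in the same way and harvested after 48 hours, and each group has 3 libraries, 12 in all. Nothing in the labels says that the libraries of a group came from separate cultures, so p-values measure only the spread between these libraries, which may be technical.

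A hairpin RNA is cut by Dicer into a short guide that leads the RNA-induced silencing complex to a matching transcript. The members of the interval share no pathway. Their products work in mitochondria, in the secretory pathway, at cell contacts, in DNA repair and in ubiquitin signalling, and what they share by the rule is a place on the chromosome. Distal 11q is known in squamous carcinomas of the mouth as a region in which tumours often carry losses, and it holds genes of the DNA damage response. DNA was not measured here, and in RNA from a whole culture fewer cells of a type and less RNA per cell cannot be told apart.

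Library totals lay between 17286934 and 19567192 counts. FMOD itself had 2, 2 and 3 counts in the NC libraries and 0 in all 9 hairpin libraries. A count of 0 allows up to 3 counts, so the loss of FMOD was not detectable at this depth. Log2 levels over the 17532 genes tested correlated at 0.751 to 0.772 (Pearson's r) between NC and hairpin libraries and at 0.984 within NC. Whether NC and the hairpin groups were the same line or passage was not tested and cannot be settled from these files, so a difference from NC here may be one between cultures as well as between hairpins. The library labelled shRNA3 library 3 correlated at 0.977 to 0.978 with the shRNA2 libraries and at 0.903 to 0.907 with the other two shRNA3 libraries, so counts and medians for shRNA3 are given below also without libraries 1 and 2, while the shRNA3 values of single genes use all 3 libraries unless stated. The summed level of 8 epithelial markers was 2330 to 2524 CPM (counts relative to library totals scaled by TMM factors) in NC, 1561 to 1971 with shRNA1, 1764 to 1834 with shRNA2 and 1541 to 2624 with shRNA3, but single markers moved in opposite directions. KRT5, a keratin of basal squamous cells, was at 963 to 1048 CPM in NC and 16.5 to 90.2 in the hairpin libraries, and the adhesion protein CDH1 at 309.9 to 335 and 35.3 to 79.4. KRT14, the partner keratin of KRT5, was at 6.5 to 9.57 CPM in NC and 24.2 to 230.3 in the hairpin libraries. The sum of 5 fibroblast markers was 56.6 to 59.6 CPM in NC, 15.4 to 20.9 with shRNA1 and 44.2 to 48.2 with shRNA2, and with shRNA3, at 32.6 to 86.5, it lay on both sides of NC. Most of it was COL1A1, at 40.3 to 43.0 CPM in NC and 14.8 to 85.3 with the hairpins. PDGFRB was at 9.34 to 11.7 CPM in NC and 0.444 to 1.29 with the hairpins, and COL1A2 and LUM were also lower there. DCN was at 0 in NC and at most 0.371 CPM elsewhere. The sum of 4 endothelial markers was 17.6 to 23.1 CPM in NC and 3.88 to 13.3 with the hairpins, but these markers also moved in opposite directions. CDH5 was at 15.3 to 20.5 CPM in NC and 0.519 to 2.76 with the hairpins, and VWF was lower there too. PECAM1 was at 0.101 to 0.197 CPM in NC and 2.09 to 9.68 with the hairpins. KDR had at most 1 count in any library. VIM, the mesenchymal intermediate filament, was at 3.04 to 3.43 CPM in NC and at 355 to 817 CPM in the hairpin libraries. Leukocyte markers summed to 53.8 to 72.0 CPM in NC and 43.8 to 236 with the hairpins, almost all of it CD68, while PTPRC and CD3E had at most 9 counts in any library. None of the markers was at 0 in all 12 libraries, and the part of these differences in the results below was not tested.

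The starts of 3 of the members are shown as sequence. The first belongs to a pair that starts back to back, TMEM25 had the largest fall, and PPP2R1B was among the 6 largest rises described below. RefSeq (GRCh38.p14) gave a start for 74 of the 96 members. The first line is the stretch between the RefSeq starts of RPUSD4, which runs to the left, and FAM118B, which runs to the right, chr11:126211651-126211781 on the plus strand. The sites are 132 bases apart. The GENCODE model of FAM118B starts before this stretch, at 126211414, so the stretch lies inside that model. The other lines are the 250 bases before the start of TMEM25 (chr11:118530942-118531191, plus strand) and of PPP2R1B (chr11:111766390-111766639, minus strand). Capitals mark the CCAAT box, the GC box (GGGCGG), the TATA box (TATAAA) and the E-box (CACGTG), each on either strand.
RPUSD4 to FAM118B: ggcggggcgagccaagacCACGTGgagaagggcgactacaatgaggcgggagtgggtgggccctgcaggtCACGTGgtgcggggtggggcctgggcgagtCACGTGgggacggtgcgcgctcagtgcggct
TMEM25: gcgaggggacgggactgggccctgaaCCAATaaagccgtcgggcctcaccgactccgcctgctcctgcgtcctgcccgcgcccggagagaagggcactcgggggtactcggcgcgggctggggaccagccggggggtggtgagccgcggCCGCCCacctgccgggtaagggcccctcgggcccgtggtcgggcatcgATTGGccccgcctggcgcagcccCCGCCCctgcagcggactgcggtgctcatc
PPP2R1B: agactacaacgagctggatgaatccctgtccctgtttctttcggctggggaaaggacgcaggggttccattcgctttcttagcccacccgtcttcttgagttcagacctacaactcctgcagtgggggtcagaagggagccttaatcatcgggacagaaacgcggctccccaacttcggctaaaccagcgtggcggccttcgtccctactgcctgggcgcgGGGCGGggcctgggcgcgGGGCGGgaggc
The stretch between RPUSD4 and FAM118B holds CACGTG 3 times, a motif that was added to the search after this sequence had been read. TMEM25 has 2 matches to CCAAT and 2 to GGGCGG, and PPP2R1B has 2 to GGGCGG. Over windows of 300 bases (250 before and 50 after the start), GGGCGG was present in 74.3% of members, 72.5% of the 9411 other genes that met the same expression rule and 44.6% of all 27305 genes of the RefSeq table. CCAAT was present in 37.8%, 36.9% and 35.7%, TATAAA in 4.05%, 5.18% and 12%, and CACGTG in 17.6%, 10.3% and 7.44% of the same sets. The median number of CpG was 25 in members and 27 in the other expressed genes. A match gives the letters of the window and not a bound site.

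Most members were higher with each hairpin than with NC. On the log2(CPM + 0.5) scale, which is used for all log2 differences from NC and understates the change of genes of low level, the median member difference was 0.84 with shRNA1 (library medians 0.90, 0.84 and 0.81), 0.70 with shRNA2 (0.75, 0.75 and 0.72) and 0.56 with shRNA3 (0.61, 0.49 and 0.85). NC libraries lay at 0.03, 0.00 and -0.04 around their own mean, so no hairpin library's median came near them. The members together took 0.300% ± 0.0113 (SD, n = 3) of NC counts, 0.653% ± 0.0345 with shRNA1, 0.576% ± 0.0117 with shRNA2 and 0.518% ± 0.0581 with shRNA3. HSPA8, the constitutive cytosolic chaperone of the heat-shock family, is the largest single contributor, and without it the share was 1.83, 1.81 and 1.69 times that of NC.

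Over all 17532 genes tested the medians were -0.03, -0.04 and -0.10. Over the 11758 genes of the series that met the members' rule of biotype, count and name they were 0.13, 0.10 and -0.02. The scaling matters most for shRNA3, whose libraries 1 and 2 had TMM factors of 0.771 and 0.795 where the other libraries had 0.979 to 1.11. With raw library totals in place of TMM the median of all genes tested moved by -0.08, -0.12 and -0.30, and the member median relative to it was 0.87, 0.73 and 0.64, against 0.87, 0.74 and 0.66 with TMM. The sign of 0, 2 and 18 members turned.

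The spread among members was wide. The interquartile range ran from 0.28 to 1.46 with shRNA1, from 0.33 to 1.38 with shRNA2 and from 0.01 to 1.20 with shRNA3, and the SD over members was 1.35, 1.33 and 1.43, against 1.52, 1.51 and 1.51 over the 11758 genes of the whole series that met the same rule of biotype, count and name. Above 0 were 79, 83 and 73 of the 96 members (54.9%, 54.2% and 49.2% of those 11758 genes). Above 1 were 41, 38 and 34 (19.65%, 18.1% and 16.6%). Below -1 were 7, 4 and 8 (17.7%, 15.7% and 18.9%). All 3 hairpins were above 0 for 63 members and below 0 for 6 (DIXDC1, BACE1, TMEM25, MCAM, VWA5A and PUS3), and the other 27 were of mixed sign. Of those 11758 genes, 36.1% were above 0 and 32.05% below 0 with all 3 hairpins. The 3 differences use the same NC libraries, so they are not independent.

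**Figure D1:**
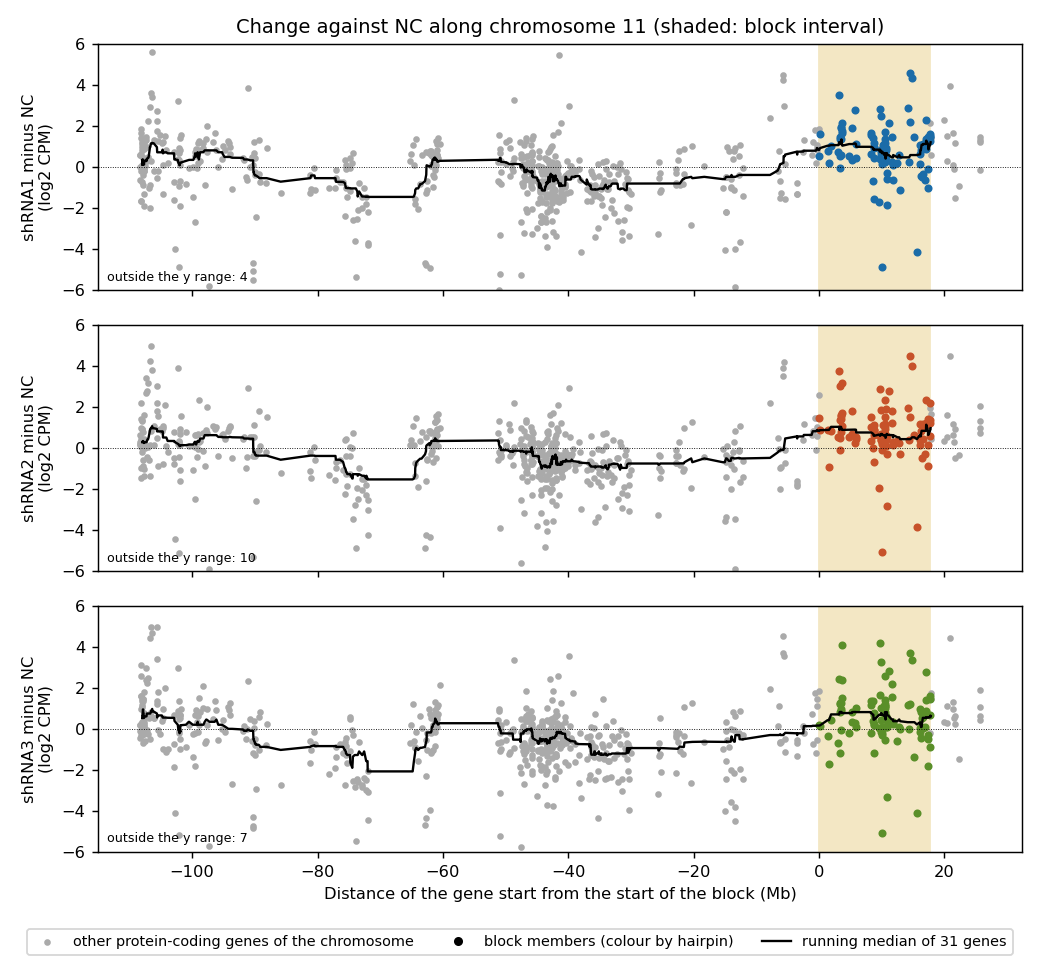
Difference of each hairpin group from NC (vertical axis, log2 CPM + 0.5, mean of 3 libraries each) for protein-coding genes of chromosome 11, by distance of the gene start from the start of the interval in Mb (horizontal axis). Coloured points are the 96 members in the shaded interval, grey points the other genes of the chromosome that met the same rule, and the black line is the running median of 31 genes. The line is above 0 across the interval, and single members scatter from about -5 to about 5.

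Before the interval the medians of chromosome 11 had the opposite sign. The 564 genes before the interval had medians of -0.33 (shRNA1), -0.34 (shRNA2) and -0.34 (shRNA3), and the 11081 genes of other chromosomes had 0.14, 0.11 and -0.01. In bins of 5 Mb the medians before the interval were not uniform. They were below 0 with every hairpin from 15 to 40 Mb and from 60 to 105 Mb. From 0 to 15 Mb and from 45 to 50 Mb they were above 0 with every hairpin, with 0.91, 0.74 and 0.48 at 10 to 15 Mb. A stretch above 0 was thus not particular to the interval. The 17 genes after the interval, up to the end of the chromosome, had 1.21, 0.92 and 0.66. The ends of the interval do not mark a step. Just outside its start, the histone gene activator NPAT differed from NC by 0.84, 0.57 and -0.53, the DNA damage kinase ATM by 0.93, 1.04 and 1.11, and the glucosyltransferase POGLUT3 by 1.85, 2.58 and 1.83. Just inside, EXPH5, a Rab effector of vesicle traffic in keratinocytes, differed by 0.53, 1.48 and 0.18, the RNA helicase DDX10 by 1.6, 0.88 and 0.16 and radixin (RDX), which links actin to the membrane, by 0.8, 0.89 and -0.35. At the other end, FAM118B differed by 1.61, 0.58 and -0.89, SRPRA by 1.29, 1.36 and 1.46 and FOXRED1 by 1.47, 2.2 and 1.62, and beyond them the Toll-like receptor adaptor TIRAP by 2.16, 1.93 and -0.20, the decapping enzyme DCPS by 1.40, 1.67 and 1.78 and the sialyltransferase ST3GAL4 by 0.59, 0.47 and 1.45. The 10 genes before the start had medians of 1.0, 0.94 and 0.44 and the 10 after the end 1.47, 0.90 and 1.06.

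**Figure D2:**
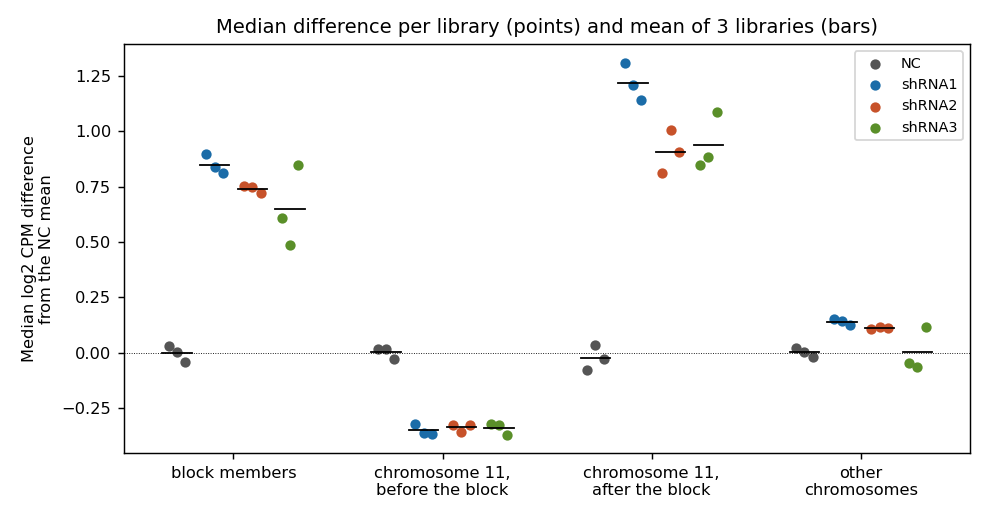
Median log2 difference from the NC mean (vertical axis) in each library for 4 sets of genes (horizontal axis), with 1 point per library and a bar at the mean of the 3 libraries. Hairpin libraries lie between 0.49 and 0.90 for the members and between -0.32 and -0.37 for chromosome 11 before the block.

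Within the interval the medians did not run in 1 direction. Cut into 6 equal lengths, the members gave shRNA1 medians of 0.80, 1.43, 0.94, 0.60, 0.59 and 0.98 from start to end, shRNA2 medians of 0.88, 1.23, 0.90, 0.60, 0.41 and 0.74, and shRNA3 medians of 0.16, 0.92, 0.38, 0.70, 0.10 and 0.32 (1.02, 1.13, 0.91, 0.44, 0.75 and 0.80 without libraries 1 and 2). The second sixth, with 18 members from SIK2 to RBM7, had the highest median with every hairpin, while the first sixth rests on 5 genes and the fifth on 7. Neighbours were no closer to each other than members picked anywhere in the interval: the median absolute difference between adjacent members was 1.11, 1.03 and 1.13, and over all 4560 pairs it was 1.01, 0.89 and 1.06 (1.0 and 0.90 for shRNA3 library 3 alone). Pearson's r with the start position over the 96 genes was -0.12, -0.08 and -0.05, and genes of 1 library set are not independent replicates.

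The members of lowest level had the lowest medians. With a mean of under 200 counts (29 members) the medians were 0.28, 0.44 and 0.06, from 200 to 1000 counts (45 members) 0.99, 0.90 and 0.70, and at 1000 or more (22 members) 0.97, 1.04 and 1.09. With library 3 as the only shRNA3 library the shRNA3 medians of the 3 classes were 0.46, 0.94 and 1.04. In the top class 21, 22 and 21 of 22 were above 0, and in the lowest 17, 20 and 17 of 29. The mean count includes the hairpin libraries, so a gene that is high there is more likely to reach a higher class. Of the interval's protein-coding genes under the minimum, 21 could still be tested across all genes and had medians of -0.64, -0.17 and -0.85. RPS25, a ribosomal protein gene of the interval left out by its name, differed from NC by 0.62, 0.16 and 0.82.

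All 96 members passed the filter on low counts. By edgeR's quasi-likelihood test at an adjusted p under 0.05, 55 members were called higher and 9 lower with shRNA1, where 26.8% and 30.6% of all 17532 genes tested were called. With shRNA2 50 were called higher and 5 lower (background 24.6% and 28.4%), and with shRNA3 48 and 6 (26.4% and 27.6%). Without shRNA3 libraries 1 and 2 the last counts were 61 and 7, where 28.1% and 28.8% of 19093 genes were called. With all 3 hairpins 41 were called higher (background 16.0%) and 4 lower (19.7%), the 4 being BACE1, TMEM25, MCAM and VWA5A. All 9 hairpin libraries were above all 3 NC libraries for 42 members (background 19.0%) and below them for 4 (25.8%). Over the 11758 genes that met the same rule of biotype, count and name, these last shares were 22.9% and 21.7%. All these member counts come from the contrast by which the interval was chosen.

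The members highest over NC were CLMP, GRAMD1B, PPP2R1B, BCO2, MPZL2 and NECTIN1. CLMP and BCO2 had at most 24 and 8 counts in any NC library, so they met the minimum mean count only through the hairpin libraries. At the other end, TMEM25 and VWA5A had at most 3 and 33 counts in any hairpin library and met it only through NC. The places of these genes among the largest rises and falls thus depend in part on the count rule. CLMP (chr11:123069865-123195281, minus strand), an immunoglobulin adhesion protein of tight junctions, stood at 0.958, 1.18 and 0.76 CPM in the NC libraries, 34, 37 and 31.1 with shRNA1, 32.4, 37.3 and 28.7 with shRNA2 and 12.7, 11.5 and 41.6 with shRNA3. Its log2 differences were 4.56, 4.51 and 3.69, and the lowest hairpin libraries, shRNA3 libraries 1 and 2, were still far above every NC library. GRAMD1B (chr11:123358428-123627774, plus strand), which carries cholesterol from the plasma membrane to the endoplasmic reticulum, was at 2.67, 2.46 and 4.15 CPM in the NC libraries, 54.6, 61 and 104 with shRNA1, 56.7, 58.5 and 54.4 with shRNA2 and 32.8, 30.3 and 43.7 with shRNA3, and no hairpin library overlapped NC. Close neighbours on the chromosome, CLMP and GRAMD1B had log2 differences of over 3 with every hairpin.

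PPP2R1B (chr11:111726908-111766427, minus strand) encodes the beta form of the scaffold subunit of protein phosphatase PP2A. It was at 5.95, 4.18 and 5.47 CPM in the NC libraries, 63.9, 65 and 66.1 with shRNA1, 75.2, 77.7 and 71.3 with shRNA2 and 23, 22.4 and 53.5 with shRNA3. The 6 libraries of shRNA1 and shRNA2 lay close together, and shRNA3 libraries 1 and 2 lay between them and NC. BCO2 (chr11:112175467-112224699, plus strand), a mitochondrial enzyme that cleaves carotenoids, was at 0.403, 0.197 and 0.355 CPM in the NC libraries, 2.73, 4.4 and 2.63 with shRNA1, 6.79, 7.77 and 5.87 with shRNA2 and 22.8, 16.7 and 5.96 with shRNA3. Here shRNA3 libraries 1 and 2 were the highest of all, and NC had counts of only 4 to 8 per library.

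MPZL2 (chr11:118253403-118264536, minus strand), an epithelial adhesion protein related to myelin protein zero, was at 9.88, 10.1 and 13.9 CPM in the NC libraries, 74.3, 79.9 and 94.6 with shRNA1, 83.1, 92 and 84.1 with shRNA2 and 379, 342 and 70.7 with shRNA3. NECTIN1 (chr11:119623408-119729084, minus strand), an adherens junction protein and herpesvirus receptor, was at 61.9, 63.7 and 60.3 CPM in the NC libraries, 282, 265 and 294 with shRNA1, 416, 424 and 433 with shRNA2 and 609.8, 531 and 281 with shRNA3. In both genes shRNA3 libraries 1 and 2 were highest and library 3 was near the shRNA1 libraries. Log2 differences from NC were 2.83, 2.89 and 4.17 for MPZL2 and 2.17, 2.77 and 2.85 for NECTIN1.

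**Figure D3:**
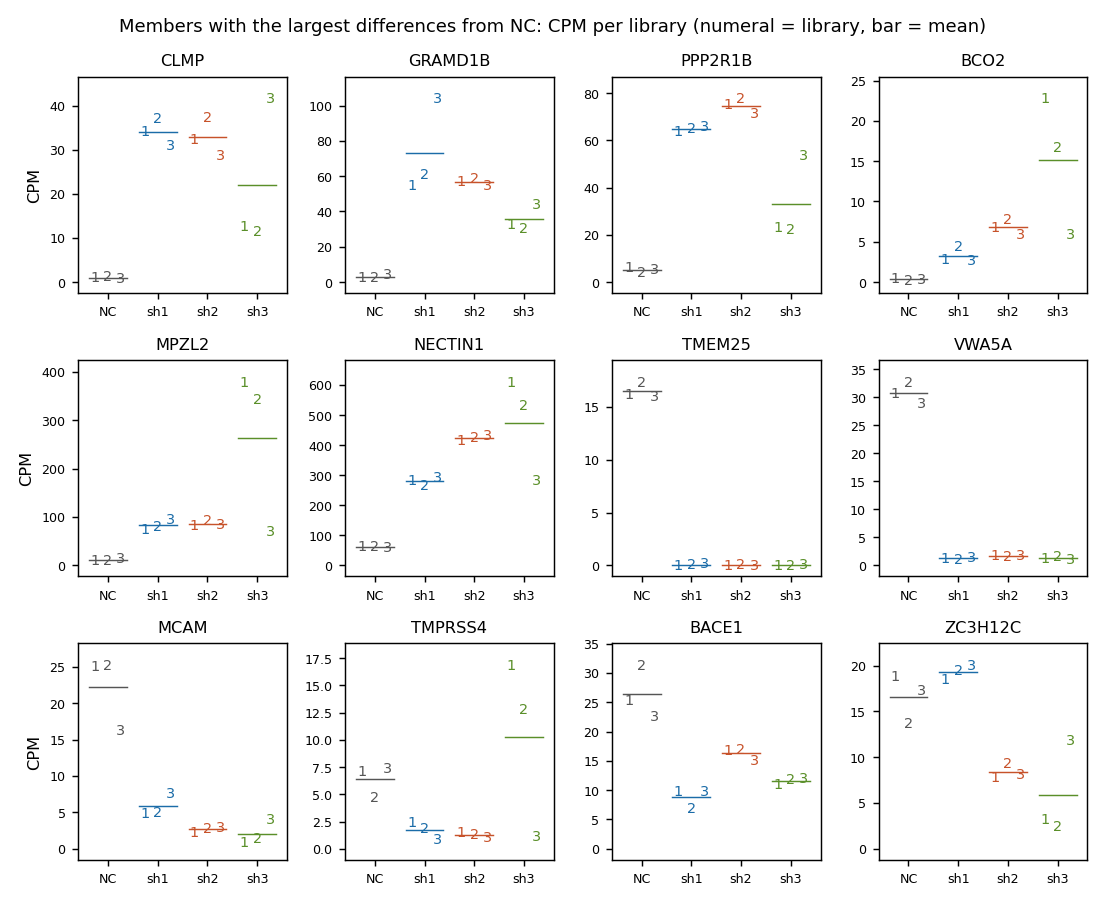
CPM (vertical axis, linear, own scale per gene) in each library of NC, shRNA1 (sh1), shRNA2 (sh2) and shRNA3 (sh3) for the 6 members highest over NC and the 6 furthest below it by the median of the 3 log2 differences. Numerals give the library number and bars the group mean. TMEM25 and VWA5A are near 0 in all 9 hairpin libraries, and shRNA3 libraries 1 and 2 stand apart from library 3 in CLMP, PPP2R1B, BCO2, MPZL2, NECTIN1, TMPRSS4 and ZC3H12C.

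Against the majority, 3 members were more than 1 log2 unit below NC with all 3 hairpins. TMEM25 (chr11:118531041-118547280, plus strand), an immunoglobulin-like membrane protein, was at 16.1, 17.4 and 16 CPM in the NC libraries, 0, 0.0968 and 0.155 with shRNA1, 0, 0.0563 and 0 with shRNA2 and 0, 0 and 0.0496 with shRNA3. No hairpin library held more than 3 of its counts. Against a floor of 3 counts per library, its NC level was at least 110-fold, 96.8-fold and 83.9-fold higher than with shRNA1, shRNA2 and shRNA3. TMEM25 overlaps TTC36 on its own strand and IFT46 and TTC36-AS1 on the other, and whether reads were assigned by strand is not given in the sources used here.

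VWA5A (chr11:124115362-124147721, plus strand), a protein with a von Willebrand factor type A domain, was at 30.7, 32.7 and 28.9 CPM in the NC libraries, 1.24, 1.11 and 1.5 with shRNA1, 1.7, 1.58 and 1.83 with shRNA2 and 1.26, 1.68 and 1.09 with shRNA3. It overlaps no other annotated gene, and its NC libraries and hairpin libraries were far apart, with differences of -4.14, -3.83 and -4.1. MCAM (chr11:119308529-119321521, minus strand), the adhesion molecule CD146, was at 25, 25.2 and 16.3 CPM in the NC libraries, 4.87, 5.03 and 7.53 with shRNA1, 2.28, 2.82 and 2.88 with shRNA2 and 0.815, 1.38 and 4.07 with shRNA3. Its order was NC, shRNA1 and then the other two hairpins, whose libraries overlapped each other. MCAM overlaps the ubiquitin ligase gene CBL on the opposite strand, which differed from NC by 0.83, 0.4 and 0.09.

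The other 3 of the 6 lowest members were not below -1 throughout. BACE1, the beta-secretase of the amyloid precursor protein, was at 25.4, 31.3 and 22.6 CPM in the NC libraries, 9.79, 6.87 and 9.7 with shRNA1, 16.8, 17 and 15.1 with shRNA2 and 11, 11.8 and 11.9 with shRNA3, and every hairpin library was below every NC library. TMPRSS4, a serine protease of the cell surface, was at 7.11, 4.72 and 7.39 CPM in the NC libraries, 2.44, 1.89 and 0.825 with shRNA1, 1.52, 1.3 and 0.996 with shRNA2 and 16.8, 12.7 and 1.09 with shRNA3, so that it was below NC in 7 hairpin libraries and above it in shRNA3 libraries 1 and 2. ZC3H12C, a ribonuclease related to Regnase-1, was at 18.8, 13.7 and 17.3 CPM in the NC libraries, 18.5, 19.4 and 20 with shRNA1, 7.78, 9.35 and 8.14 with shRNA2 and 3.19, 2.48 and 11.9 with shRNA3. For ZC3H12C the shRNA1 libraries overlapped NC and only shRNA2 and shRNA3 were below it.

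Members are set out below in lists by the role of their product. Their calls against NC come from the contrast by which the interval was chosen, so they carry no test. Of all 96 members, 55, 50 and 48 were called higher and 9, 5 and 6 lower. The shares of all genes tested beside the calls therefore do not set any list apart from the other members. Genes of mitochondrial proteins lay above NC with TMM scaling. All 8 (SDHD, DLAT, FDX1, TIMM8B, ATP5MG, FOXRED1, NLRX1 and REXO2) were above 0 with every hairpin, with medians of 1.0, 1.19 and 0.92 and ranges of 0.43 to 1.96, 0.43 to 2.20 and 0.11 to 1.62. With raw library totals 7 of the 8 stayed above 0 with shRNA3, and all 8 did with the other hairpins. Of them 7, 7 and 6 were called higher and none lower, where 26.8%, 24.6% and 26.4% of all genes tested were called higher and 30.6%, 28.4% and 27.6% lower. With library 3 as the only shRNA3 library the shRNA3 median was 0.98, with 8 above 0 and 7 called higher. SDHD, a membrane anchor subunit of succinate dehydrogenase, was at 52.3, 48.6 and 53.8 CPM in the NC libraries, 69.4, 78.6 and 85.9 with shRNA1, 89, 88.3 and 86 with shRNA2 and 123, 116 and 72.8 with shRNA3. DLAT, the acetyltransferase subunit of pyruvate dehydrogenase, was at 27.2, 28.9 and 29.9 CPM in the NC libraries, 116, 117 and 105 with shRNA1, 82, 87.4 and 84.5 with shRNA2 and 56.9, 64.6 and 96.5 with shRNA3. Neither gene's hairpin libraries overlapped NC. FOXRED1, an assembly factor of respiratory complex I, differed by 1.47, 2.2 and 1.62, the ferredoxin FDX1 by 1.05, 0.82 and 0.43 and the nuclease REXO2 by 0.43, 0.43 and 0.11.

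In the secretory pathway list of 11 genes, 10, 10 and 11 were above 0 (10, 10 and 9 with raw library totals) and the medians were 0.87, 1.10 and 1.02. Called higher were 8, 8 and 9, and lower 1, 0 and 0 (background 26.8%, 24.6% and 26.4% higher and 30.6%, 28.4% and 27.6% lower). With shRNA3 library 3 alone the median was 0.69, with 10 above 0, 8 called higher and 1 lower. SRPRA, which receives the signal recognition particle at the endoplasmic reticulum, was at 82.7, 69.6 and 70.8 CPM in the NC libraries, 199, 187 and 162 with shRNA1, 191, 186 and 195 with shRNA2 and 259, 217 and 152 with shRNA3. STT3A, the catalytic subunit of oligosaccharyltransferase, was at 67.1, 64 and 59.6 CPM in the NC libraries, 103, 111 and 138 with shRNA1, 142, 143 and 136 with shRNA2 and 196, 179 and 134 with shRNA3. In both genes every hairpin library was above every NC library. ALG9, a mannosyltransferase of N-glycan synthesis, differed by 1.49, 1.36 and 1.28, DPAGT1, which catalyses the first step of that pathway, by 0.26, 1.17 and 1.02 and the coatomer subunit ARCN1 by 0.87, 0.28 and 0.1. The exception was SORL1, a sorting receptor of endosomes, at -1.08, -0.29 and 0.02, whose shRNA3 libraries held 82.3, 69.7 and 26.4 CPM against 56.7, 47.6 and 54.4 in NC.

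Genes of adhesion, surface and barrier had the widest range of the 9 lists with each hairpin. Of 11, the lowest and highest were -1.84 and 4.56 with shRNA1, -2.82 and 4.51 with shRNA2 and -3.31 and 4.17 with shRNA3, and 4, 5 and 5 were called higher and 2, 2 and 1 lower (background 26.8%, 24.6% and 26.4% higher and 30.6%, 28.4% and 27.6% lower). Their medians were 0.41, 0.89 and 0.33, and with shRNA3 8 were above 0 with TMM and 5 with raw library totals. With shRNA3 library 3 alone the median was 0.86, with 7 called higher and 2 lower. CLMP, MPZL2 and NECTIN1 at 1 end and MCAM and TMPRSS4 at the other are described above. MPZL3, a neighbour of MPZL2 and its paralog, differed by 0.4, 0.6 and 1.66, and ARHGEF12, an exchange factor for RhoA, by 0.1, 0.14 and 0.33, with hairpin libraries on both sides of NC.

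The 8 genes of DNA damage, chromatin and transcription had medians of 1.13, 0.58 and 0.58, with 7, 4 and 5 called higher and none lower (background 26.8%, 24.6% and 26.4% higher and 30.6%, 28.4% and 27.6% lower). Without shRNA3 libraries 1 and 2 the shRNA3 median was 0.87, with 6 called higher and none lower. H2AX, the histone variant phosphorylated at DNA breaks, was at 52.5, 47.2 and 42.5 CPM in the NC libraries, 140.4, 143 and 180.3 with shRNA1, 256, 226 and 243 with shRNA2 and 329, 298 and 235 with shRNA3. CHEK1, the checkpoint kinase that acts after ATR, was at 7.87, 8.7 and 7.24 CPM in the NC libraries, 43.9, 36.2 and 42.9 with shRNA1, 38.5, 45.8 and 41.8 with shRNA2 and 59.9, 63.3 and 48.6 with shRNA3. Both were above NC in every hairpin library, by 1.69, 2.34 and 2.58 for H2AX and 2.3, 2.33 and 2.77 for CHEK1. KMT2A, a histone H3 lysine methyltransferase, differed by 0.85, 0.41 and 0.46, and BCL9L, a coactivator of beta-catenin, by 1.11, 0.5 and 1.14. The zinc finger gene ZNF202 was at 4.03, 5.46 and 5.07 CPM in the NC libraries, 17.8, 13.6 and 11.6 with shRNA1, 7.66, 8.17 and 7.64 with shRNA2 and 0.519, 0.364 and 10.1 with shRNA3, highest with shRNA1 and lowest in shRNA3 libraries 1 and 2.

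Of 8 genes of RNA processing and modification, 6, 5 and 5 were called higher and 0, 0 and 2 lower (background 26.8%, 24.6% and 26.4% higher and 30.6%, 28.4% and 27.6% lower), with medians of 1.15, 0.79 and 0.86. The shRNA3 median without libraries 1 and 2 was 1.08, with 6 called higher and 1 lower. DDX6, an RNA helicase of processing bodies, was at 45.3, 41.4 and 44.1 CPM in the NC libraries, 93, 91.4 and 93.3 with shRNA1, 92.7, 101 and 90.7 with shRNA2 and 93.8, 84.2 and 91 with shRNA3. Its 9 hairpin libraries all lay above NC and within 84.2 to 101 CPM, with log2 differences of 1.08, 1.11 and 1.03. BUD13, a splicing factor, differed by 1.55, 1.53 and 1.35. The transfer RNA pseudouridine synthase PUS3 went the other way, at 5.5, 5.31 and 3.75 CPM in the NC libraries, 5.37, 4.6 and 3.82 with shRNA1, 2.17, 2.31 and 2.6 with shRNA2 and 0.963, 0.364 and 2.33 with shRNA3, with 63 counts on average and the opposite-strand neighbour HYLS1 over part of its length.

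The list of ubiquitin and signalling genes, with 14 members, had medians of 0.63, 0.53 and 0.15, and 6, 7 and 4 were called higher and 2, 1 and 1 lower (background 26.8%, 24.6% and 26.4% higher and 30.6%, 28.4% and 27.6% lower). The list also held the proteases BACE1 and PCSK7 and the hydrolase subunit PAFAH1B2, and BACE1 was among those called lower with every hairpin. With shRNA3, 9 of the 14 were above 0 with TMM and 5 with raw library totals. The shRNA3 median without libraries 1 and 2 was 0.60, with 11 above 0, 7 called higher and 1 lower. UBASH3B, a tyrosine phosphatase that acts on receptor signalling, was at 9.58, 9.05 and 8.76 CPM in the NC libraries, 76.2, 65.2 and 69.5 with shRNA1, 35.9, 37.9 and 36.8 with shRNA2 and 16.8, 17.3 and 31.7 with shRNA3. SIK2, a salt-inducible kinase that overlaps PPP2R1B on the opposite strand, was at 22.7, 20.6 and 18.8 CPM in the NC libraries, 38.9, 34.8 and 32.7 with shRNA1, 31.1, 32.2 and 27.4 with shRNA2 and 8.22, 6.92 and 34.1 with shRNA3. The order of hairpin groups was the same in both, and in SIK2 shRNA3 libraries 1 and 2 were below NC while library 3 was above it. USP28, a deubiquitinase, differed by 0.37, 0.67 and 0.33 and USP2 by -0.58, -0.3 and 0.1, with USP2 at under 7 CPM in every library.

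Smaller lists held 2 to 4 genes each. HSPA8 had the highest level per length of any member, at 78.0 CPM per kb of exon in NC, and was at 376, 414 and 345 CPM in the NC libraries, 1389, 1703 and 2115 with shRNA1, 1124, 1050.0 and 1073 with shRNA2 and 703, 819 and 1148 with shRNA3. Its differences were 2.18, 1.52 and 1.21, and HSPA8 has processed pseudogenes elsewhere that can share its reads. HYOU1, a chaperone of the endoplasmic reticulum, differed by 0.34, 0.3 and 0.83. IL18, an epithelial cytokine, was at 10.8, 11.7 and 12.8 CPM in the NC libraries, 34.1, 39 and 50 with shRNA1, 39.2, 39.8 and 39.8 with shRNA2 and 94.9, 83.9 and 32.2 with shRNA3, and PTS, an enzyme of tetrahydrobiopterin synthesis, at 6.4, 6.29 and 7.8 CPM in the NC libraries, 20.1, 25.4 and 22.9 with shRNA1, 15, 13.9 and 16.5 with shRNA2 and 22.3, 26.5 and 14.4 with shRNA3. No hairpin library of either overlapped NC. The sterol desaturase SC5D differed by 0.59, 0.23 and 0.1 and was not called with shRNA2 or shRNA3, though it was called higher with library 3 as the only shRNA3 library.

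The remaining 29 members were in no list. Among them OAF differed by 1.46, 1.82 and 2.22, the kinetochore protein ZW10 by 1.89, 1.8 and 0.83 and C2CD2L by 1.37, 1.51 and 1.4. The unnamed loci ENSG00000258529 and ENSG00000285827 run through ALG9 and from ATP5MG into KMT2A on the same strand, so their counts cannot be separated from those of the genes they overlap. Their differences, 1.35, 3.01 and 1.24 and 2.51, 1.84 and 3.28, are therefore uncertain.

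A second reading used 12 protein complexes with 1 subunit in the interval, each set beside its partners encoded outside it, 60 partners in all. Counted among these are PPP2R1A and STT3B, which are alternative forms of the block subunits PPP2R1B and STT3A rather than true partners. The block subunit lay above the median of its partners in 11, 12 and 12 of the 12 complexes and above every partner in 6, 6 and 8. The median over complexes was 0.88, 0.73 and 1.0 for the block subunits and 0.08, 0.03 and -0.05 for the partner medians. With shRNA3 library 3 alone the block subunit was above the partner median in 11 complexes and above every partner in 5, with medians of 0.76 and 0.09. Block subunits were chosen through the interval, so this is a description of the same choice and not a test.

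In succinate dehydrogenase, SDHD was at 0.59, 0.76 and 0.97 while the median of SDHA, SDHB and SDHC was -0.89, -0.52 and -0.23. In pyruvate dehydrogenase DLAT was at 1.96, 1.55 and 1.29 against a partner median of 0.05, 0.19 and -0.15. In the oligosaccharyltransferase all 8 listed partners, with the alternative form STT3B among them, were below STT3A with every hairpin. PPP2R1B was above its alternative form PPP2R1A and above PPP2CA and PPP2CB with every hairpin. The median of these 3 was 0.38, 0.53 and 0.59. The coatomer subunit ARCN1 was above 6, 5 and 4 of 7 partners. The exception was the receptor of the signal recognition particle with shRNA1, where SRPRA was at 1.29 and its partner SRPRB at 1.75, and with shRNA3 library 3 alone they were at 1.03 and 1.54.

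**Figure D4:**
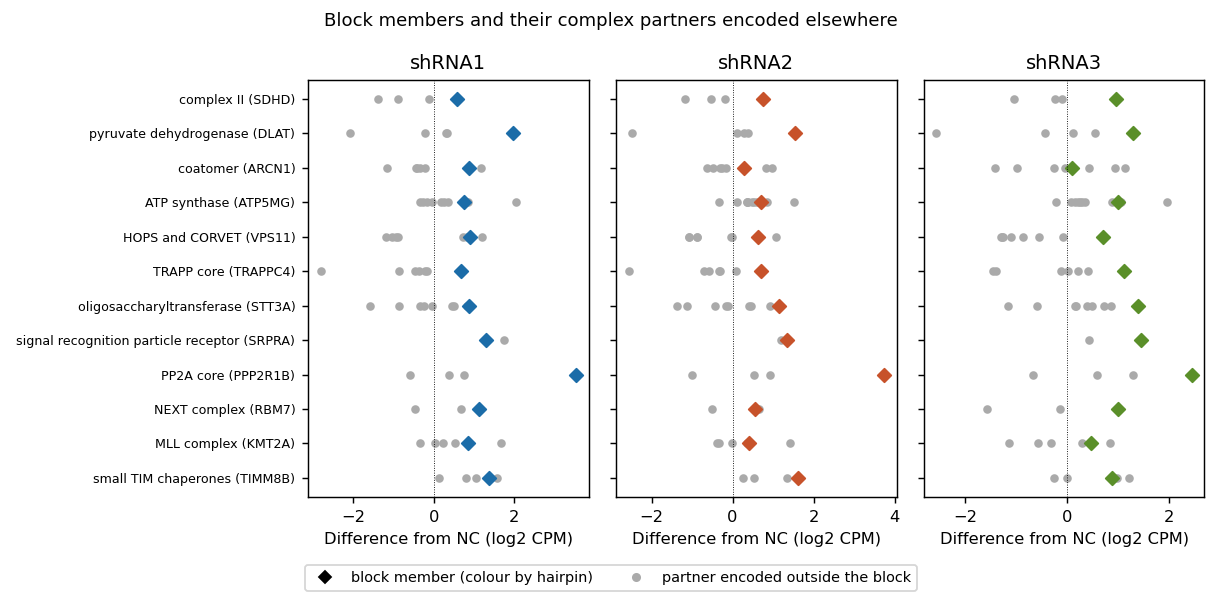
Log2 difference from NC (horizontal axis, CPM + 0.5) of the block subunit (coloured diamond) and of its partners encoded outside the interval (grey points) in 12 complexes (rows), 1 panel per hairpin. Diamonds lie to the right of the partner median in 11, 12 and 12 of 12 complexes.

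Pairs of members that start back to back gave mixed values. Of 7 such pairs with GENCODE starts within 1000 bases, the median absolute difference within a pair was 0.73 with shRNA1, 0.84 with shRNA2 and 0.41 with shRNA3 (0.66 without shRNA3 libraries 1 and 2). Except for PCSK7 and RNF214, the gene models of a pair overlap at their starts, with distances of -25 to -856 bases. Whether reads were assigned by strand is not given, so the genes of an overlapping pair may share reads. TIMM8B and SDHD, whose starts are 25 bases apart, were at 1.38, 1.62 and 0.87 and 0.59, 0.76 and 0.97, and PCSK7 and RNF214 at 0.99, 0.9 and 0.78 and 0.43, 0.66 and 0.2. IFT46 and ARCN1 were at 0.14, -0.11 and -0.31 and 0.87, 0.28 and 0.1, and FEZ1 and STT3A at -0.63, -0.3 and 0.09 and 0.87, 1.14 and 1.39. RPUSD4, a mitochondrial pseudouridine synthase, and FAM118B, whose shared stretch is printed above, were at 1.52, 1.21 and 0.71 and 1.61, 0.58 and -0.89. They were alike with shRNA1 and on opposite sides of 0 with shRNA3, but at 1.11 and 0.46 with shRNA3 library 3 alone. The first pair by position is the unnamed ENSG00000258529 and CFAP68, at 1.35, 3.01 and 1.24 and 0.53, 0.48 and 0.83.

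The contrasts between hairpin groups do not set any of them against NC, and the ends of the interval were not set on them. The minimum mean count was taken over all 12 libraries, so a gene high with 1 hairpin alone could become a member through that hairpin. The contrasts were tested by edgeR's quasi-likelihood test over all genes with all 12 libraries (Benjamini-Hochberg adjustment over 17532 genes, threshold 0.05). The NC libraries enter the fit's estimate of spread. Between shRNA1 and shRNA2, 15 of 96 members differed (15.6%, with 12.3% of all genes called). Of these, 7 were higher with shRNA1 and 8 lower, with backgrounds of 5.78% and 6.53%. The contrast of shRNA1 and shRNA3 called 37 (38.5%, background 30.0%), of which 18 were higher with shRNA1 (background 11.9%) and 19 lower (18.1%). The contrast of shRNA2 and shRNA3 called 6 (6.25%, background 8.34%), of which 2 were higher with shRNA2 (background 1.91%) and 4 lower (6.43%). At least 1 pair called 43 members, no pair called 53, and none was called in all 3. Shares over all genes are not given for these last counts. The shares of the single contrasts are close enough to the background that they say nothing particular about the members. The median member differed by 0.01 between shRNA1 and shRNA2, 0.20 between shRNA1 and shRNA3 and 0.19 between shRNA2 and shRNA3, against 0.00, 0.00 and 0.01 over all genes tested. Over the 11758 genes that met the same rule of biotype, count and name, the medians were 0.01, 0.06 and 0.07.

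With only the 6 libraries compared, edgeR called 40, 0 and 0 members. In the last 2 contrasts 34 and 19 members then had an unadjusted p under 0.05, and DESeq2 with all 12 libraries called 46 and 20. No call against shRNA3 described below held in the fits of 6 libraries. Shares of all genes called in these fits are not given here, so the counts are no result about the members.

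The differences from shRNA3 rest on how its libraries fall. The counts that follow come without shares of all genes called in the same fits, so they say nothing particular about the members. With shRNA3 library 3 left out, 75 members were called between shRNA1 and shRNA3 and 76 between shRNA2 and shRNA3. With library 1 or library 2 left out, 12 and 14 were called against shRNA1 and 0 and 0 against shRNA2, where 16 and 17 members had an unadjusted p under 0.05. Other libraries moved the counts as well: 2 to 4 members were called between shRNA1 and shRNA2 without shRNA1 library 1 or 2 or any 1 shRNA2 library, 13 and 14 between shRNA1 and shRNA3 without shRNA1 library 1 or 2, and 0 between shRNA2 and shRNA3 without any 1 shRNA2 library, where 20 to 23 had an unadjusted p under 0.05. In the fit with library 3 as the lone shRNA3 library, which is then assumed to vary like the other groups, 8 and 2 were called. Library 3 alone gave a block median of 0.85 over NC with an SD over members of 1.34, and libraries 1 and 2 gave 0.53 with an SD of 1.63. Of the 96 members, 25 were more than 1 log2 unit higher in library 3 than in the mean of libraries 1 and 2, and 11 more than 1 lower. Of the 11758 genes of the series that met the same rule of biotype, count and name, 2489 were more than 1 higher and 1698 more than 1 lower. The lowest member was TMPRSS4, at 1.09 CPM in library 3 against 16.8 and 12.7.

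CDON, a co-receptor of hedgehog signalling, kept its call between shRNA1 and shRNA2 under all 12 alternatives run. It was at 11.3, 11.9 and 11.9 CPM in the NC libraries, 5.22, 5.23 and 6.03 with shRNA1, 11.5, 14.5 and 13.6 with shRNA2 and 10.3, 7.35 and 11.5 with shRNA3. The shRNA1 libraries were below every other library, and the log2 difference of shRNA1 from shRNA2 was -1.26 ± 0.21 (SE; adjusted p = 0.00513) by edgeR. TRIM29, a keratinocyte protein of the TRIM family, was at 134, 119.6 and 108 CPM in the NC libraries, 166, 150.2 and 122 with shRNA1, 285, 270.1 and 293 with shRNA2 and 439, 381 and 261 with shRNA3. It was lower with shRNA1 than with shRNA2, by -0.95 ± 0.19 (SE; adjusted p = 0.0111), and than with shRNA3, by -1.30 ± 0.19 (SE; adjusted p = 0.00297), both by edgeR's quasi-likelihood test and with no overlap of libraries. The call against shRNA2 was lost without shRNA2 library 3 (adjusted p = 0.0515).

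UBASH3B stepped down across the hairpins in the libraries given above. It was higher with shRNA1 than with shRNA2 by 0.93 ± 0.22 (SE; adjusted p = 0.0198) and than with shRNA3 by 1.68 ± 0.22 (SE; adjusted p = 0.00243), by edgeR. The first call was lost under 6 of 12 alternatives, and the second only where the fit used the 6 libraries compared. NNMT, which methylates nicotinamide, was at 0.504, 1.18 and 0.658 CPM in the NC libraries, 5.52, 5.32 and 18.7 with shRNA1, 0.878, 1.24 and 0.886 with shRNA2 and 0.593, 0.728 and 2.33 with shRNA3. NNMT had 111, 110 and 363 counts with shRNA1 and at most 47 in any other library. NNMT thus met the minimum mean count only through shRNA1, and its membership was not independent of its excess there. It was higher with shRNA1 than with shRNA2 by 3.29 ± 0.65 (SE; adjusted p = 0.0104) and than with shRNA3 by 2.97 ± 0.64 (SE; adjusted p = 0.0096) by edgeR, and shRNA1 library 3 was far above the other two. Against shRNA2 it lost its call without shRNA2 library 1 or library 3, and against shRNA3 without shRNA3 libraries 1 and 2 (2.06, adjusted p = 0.111).

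H2AX was lower with shRNA1 than with shRNA3 by -0.89 ± 0.16 (SE; adjusted p = 0.00524) by edgeR, and its libraries did not overlap. FAM118B was at 5.45, 5.95 and 4.76 CPM in the NC libraries, 23.1, 18.9 and 12 with shRNA1, 7.84, 9.07 and 7.86 with shRNA2 and 1.26, 1.75 and 7.54 with shRNA3. It was higher with shRNA1 than with shRNA3 by 2.32 ± 0.54 (SE; adjusted p = 0.0126), and its shRNA3 library 3 was at the level of shRNA2. PUS3 was also higher with shRNA1 than with shRNA3, by 1.87 ± 0.48 (SE; adjusted p = 0.0177), and BCO2 lower, by -2.21 ± 0.44 (SE; adjusted p = 0.00761). Without shRNA3 libraries 1 and 2 the edgeR calls of PUS3 and BCO2 were lost, and that of FAM118B held at 1.24 (adjusted p = 0.0325).

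**Figure D5:**
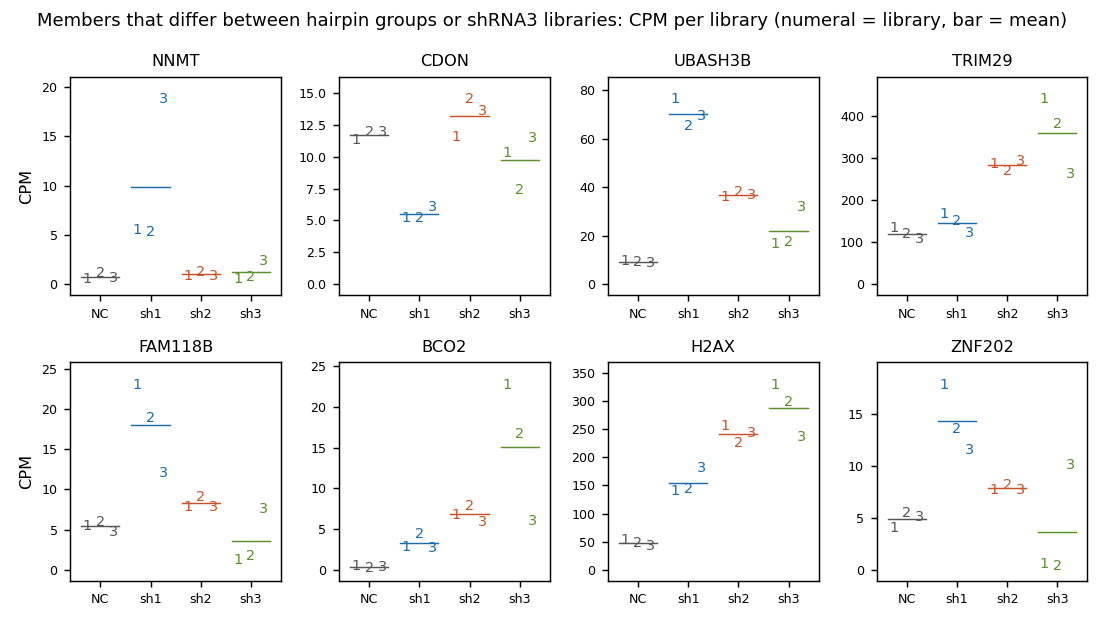
CPM (vertical axis, linear, own scale per gene) in each library of NC, shRNA1 (sh1), shRNA2 (sh2) and shRNA3 (sh3) for 8 members that differ between hairpin groups or among shRNA3 libraries; numerals give the library number and bars the group mean. CDON is lowest with shRNA1, UBASH3B is highest there, and shRNA3 library 3 lies near shRNA2 in FAM118B, BCO2, H2AX, TRIM29 and UBASH3B.

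The 6 members called between shRNA2 and shRNA3 were all close to the threshold. PPP2R1B was higher with shRNA2 by 1.18 ± 0.29 (SE; adjusted p = 0.0389) and NLRX1, a mitochondrial NOD-like receptor, by 1.13 ± 0.31 (SE; adjusted p = 0.0493) by edgeR. Lower with shRNA2 were CENATAC, a factor of minor intron splicing, by -0.51 ± 0.14 (SE; adjusted p = 0.0496) and PAFAH1B2, a catalytic subunit of a platelet-activating factor hydrolase, by -0.42 ± 0.12 (SE; adjusted p = 0.0492). TMPRSS4 and MPZL2 were also lower with shRNA2, by -2.99 ± 0.76 (SE; adjusted p = 0.0421) and -1.61 ± 0.45 (SE; adjusted p = 0.0496) by edgeR. With shRNA3 libraries 1 and 2 left out, none of the 6 calls held, and the direction of these last 2 turned, to 0.20 for TMPRSS4 and 0.28 for MPZL2.

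TMPRSS4, MPZL3 and MPZL2 are consecutive members of the interval. All 3 had their highest levels of the 12 libraries in shRNA3 libraries 1 and 2, and MPZL3 was at 8.52, 6.98 and 9.02 CPM in the NC libraries, 9, 12.4 and 11.4 with shRNA1, 12, 13.8 and 12.1 with shRNA2 and 40.8, 38.4 and 12.2 with shRNA3. Against shRNA1 their edgeR log2 differences (shRNA1 minus shRNA3) were -2.56 ± 0.74 (SE; adjusted p = 0.0265) for TMPRSS4, -1.47 ± 0.37 (SE; adjusted p = 0.0156) for MPZL3 and -1.67 ± 0.45 (SE; adjusted p = 0.0205) for MPZL2. Without libraries 1 and 2 all 3 calls were lost: the first and last turned to 0.64 and 0.21, and MPZL3 was at -0.17 (adjusted p = 0.702 by edgeR). This run of 3 neighbours was picked out after its values had been seen.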

How the data were processed

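RNA was sequenced from 12 libraries of SCC-15 cells in 4 groups of 3, grouped by their titles. The authors deposited 1 table of estimated counts by gene with no scaling between libraries, and 13.8% of the entries are fractional. The submitters' processing notes name HISAT2, HTSeq 0.11.2 and the build GRCh38 without saying what each was used for. Which gene models were counted, whether low genes were dropped and whether strand was used are not given in the sources used here. Positions came from GENCODE release 29 on GRCh38 by Ensembl ID, which covered 97.2% of the genes tested.

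The estimated counts were rounded to whole numbers. Genes were filtered with filterByExpr (minimum count 10, minimum total 15), which left 17532, and tested with edgeR 4.0.16 in R 4.3.3 (TMM factors, glmQLFit and glmQLFTest, all 12 libraries in 1 fit with 8 residual degrees of freedom, Benjamini-Hochberg adjustment). The threshold was an adjusted p under 0.05. Each SE printed with an edgeR value was derived from the test, as the size of the log2 difference divided by the square root of F. The biological coefficient of variation was 0.289. Levels are CPM with TMM-scaled totals, and log2 differences are differences of group means of log2(CPM + 0.5). The test script was checked on simulated data. Intervals and floors (3 counts) cover counting error only.

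The members, the lists and the tests were chosen with earlier results of these data known. Named genes are FMOD, the 3 genes inside and outside each end, the 6 members with the largest fall and the 6 with the largest rise by the median of the 3 hairpin differences, the 5 of highest CPM, up to 4 of the largest called and non-overlapping members per pair of hairpin groups, members of the role and complex lists, members more than 1 log2 unit on the other side of 0 from the block median with all 3 hairpins, and up to 6 pairs that start within 1000 bases. A few further members are named where a count of 6 or fewer was given in full or as examples, and were chosen after their values were seen. Same-numbered libraries did not deviate together (mean r -0.00267 over 18 pairs), so the numbers were not used as pairs. The alternatives were DESeq2 1.42.0 size factors and Wald test, raw totals, no filter, the replicate number as a block, only the 6 libraries compared, stricter thresholds, other count minimums and interval ends, and leaving out libraries. The shRNA3 values by sixth, level class, list, complex and pair without libraries 1 and 2 were added after seeing the data; their calls take the spread of that group from the other groups. Some measured genes are not reported here.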

Additional observations from a re-analysis of the deposited data

How the results depend on the processing

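The block median stayed above 0 with every hairpin under each alternative run. With raw library totals it was 0.77, 0.56 and 0.24 (shRNA1, shRNA2, shRNA3), with a minimum of 200 counts (67 members) 0.99, 0.90 and 0.87, with a minimum of 10 counts (116 members) 0.76, 0.65 and 0.44, and with DESeq2's size factors 0.82, 0.66 and 0.56. Without shRNA3 libraries 1 and 2 the shRNA3 median was 0.85. Leaving out 1 library gave 0.79 to 0.93, 0.69 to 0.72 and 0.53 to 0.61.

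Members lower than NC numbered 5 with shRNA1 at an adjusted p under 0.01 and 9 with shRNA2 in the fit of the 6 libraries compared. Leaving out 1 library gave 5 to 9 (shRNA1), 3 to 4 (shRNA2) and 5 to 22 (shRNA3, the highest without library 3). Shares of all genes called are not given for these settings.

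Calls between hairpin groups moved most, and shares of all genes called are not given for these settings. Between shRNA1 and shRNA2 there were 9 with no filter, 40 with only the 6 libraries, 1 at an adjusted p under 0.01, 2 with a log2 change of at least 1, and 2 to 18 with 1 library left out. Between shRNA1 and shRNA3 there were 0 with only the 6 libraries (34 at an unadjusted p under 0.05, and 46 by DESeq2 with all libraries), 8 without shRNA3 libraries 1 and 2, 10 at an adjusted p under 0.01, 16 with a log2 change of at least 1, and 12 to 75 with 1 library left out. Between shRNA2 and shRNA3 there were 20 with DESeq2, 3 with no filter, 2 without shRNA3 libraries 1 and 2, and 0 with raw totals, with only the 6 libraries or at an adjusted p under 0.01 (27, 19 and 33 at an unadjusted p under 0.05), and 0 to 76 with 1 library left out. As a replicate block, which pairs libraries by number only, the fit called 9, 33 and 0 members (32 at an unadjusted p under 0.05 for the last).

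Without shRNA3 libraries 1 and 2 the direction turned for TMPRSS4 (0.64 and 0.20) and MPZL2 (0.21 and 0.28), each for shRNA1 and shRNA2 against shRNA3. The causes were not tested. Depth limits genes near 3 counts, such as TMEM25 with the hairpins and FMOD throughout.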
